A study of Mus musculus with 6 samples.

Results

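A set of 10 genes of the Hippo pathway was followed in mouse airway cells treated with TGF-β1. They were Yap1, which encodes YAP, Wwtr1, which encodes TAZ, the 4 TEAD genes Tead1, Tead2, Tead3 and Tead4, and Lats2, Amotl2, Ajuba and Ankrd1. The 10 were chosen as parts of the pathway, through probes whose RefSeq accession maps to them, and all 10 were found among the 22910 genes that the array probes reached through a RefSeq accession. The cells were 2D-MAOs, airway epithelial organoids from the lung of C57BL/6 mice that had been plated as a flat culture. TGF-β1 was added from day 3 to 3 cultures and left out of 3 control cultures. All 6 were kept in medium without noggin, a BMP inhibitor, and without A83-01, an inhibitor of the TGF-β receptor kinase, and were collected on day 7. No concentration of TGF-β1 is named for this experiment. The methods describe the 3 cultures of a group as biological replicates.

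YAP and TAZ are transcriptional co-activators that do not bind DNA themselves. In the nucleus they bind a TEAD protein, which recognises DNA, and together they raise the transcription of genes such as Ccn1, Ccn2 and Ankrd1. The Hippo kinases restrain them: MST kinases activate LATS kinases, which phosphorylate YAP and TAZ so that they are held in the cytoplasm or degraded. Much of this control acts on the location and stability of the proteins, which RNA arrays do not measure. In airway epithelium YAP is known for its part in maintaining and differentiating basal stem cells, and SMAD proteins, which carry the TGF-β signal, can bind YAP and TAZ.

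RNA of each culture was hybridised to 1 array with a single dye, and values are quantile-normalised log2 signals unless another scale is named. Of the probes, 55.0% to 59.0% were well above background on each array. Probes differ in how brightly they bind, so each gene was compared between arrays. Signals of different genes were set together only in sums over marker lists and in differences taken within each array. All 6 epithelial markers (Epcam, Cdh1, Krt8, Krt18, Krt19 and Cldn7) were well above background on all 6 arrays, as were the airway markers Scgb1a1, Foxj1, Krt5 and Trp63, while the mucin genes Muc5ac and Muc5b were so on none. Among genes known to respond to TGF-β, Pmepa1 rose by 1.31 on the log2 scale (limma adjusted p = 0.00619), and Smad7 and Skil had log2 differences of 0.82 and 0.65 with limma adjusted p of 0.0747 and 0.0571. One library stood apart. TGF-β1 replicate 3 lay at a Euclidean distance of 54.4 to 60.9 from the control arrays and of 61.1 and 62.3 from the other TGF-β1 arrays, taken over the log2 signals of all tested genes, while TGF-β1 replicates 1 and 2 lay 32.3 apart. Replicate 3 of each group lay in row 2 of the slide and the other 4 arrays in row 1. Results without TGF-β1 replicate 3 or within slide rows are therefore given for several of the genes.

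None of the 10 genes passed the test, limma with a Benjamini-Hochberg adjusted p under 0.05 over the 14345 genes tested, which 2.04% of all tested genes passed. At an unadjusted limma p under 0.05 there were 3 of 10, Tead2, Tead3 and Ankrd1, beside 22.2% of all tested genes. All 3 TGF-β1 arrays lay above all 3 control arrays for 5 genes, Wwtr1, Tead2, Tead3, Amotl2 and Ankrd1, and below them for none of the 10. Among all tested genes 12.9% lay wholly above and 13.5% wholly below. With scaling to the 75th percentile 2 of the 10 lay wholly above, Tead2 and Ankrd1, beside 10.4% of all tested genes, a count added after seeing the data. The mean was higher with TGF-β1 for 9 of the 10 genes and lower for Tead4, but with scaling to the 75th percentile it was higher for 5 and lower for 5. The median log2 difference over the 10 was 0.18 beside -0.03 over all tested genes, and with that scaling -0.0048 beside -0.09. Without TGF-β1 replicate 3, the 3 genes Tead2, Tead4 and Ankrd1 passed, where 15.4% of all tested genes did. Every one of the 10 was well above background on all 6 arrays.

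**Figure D1:**
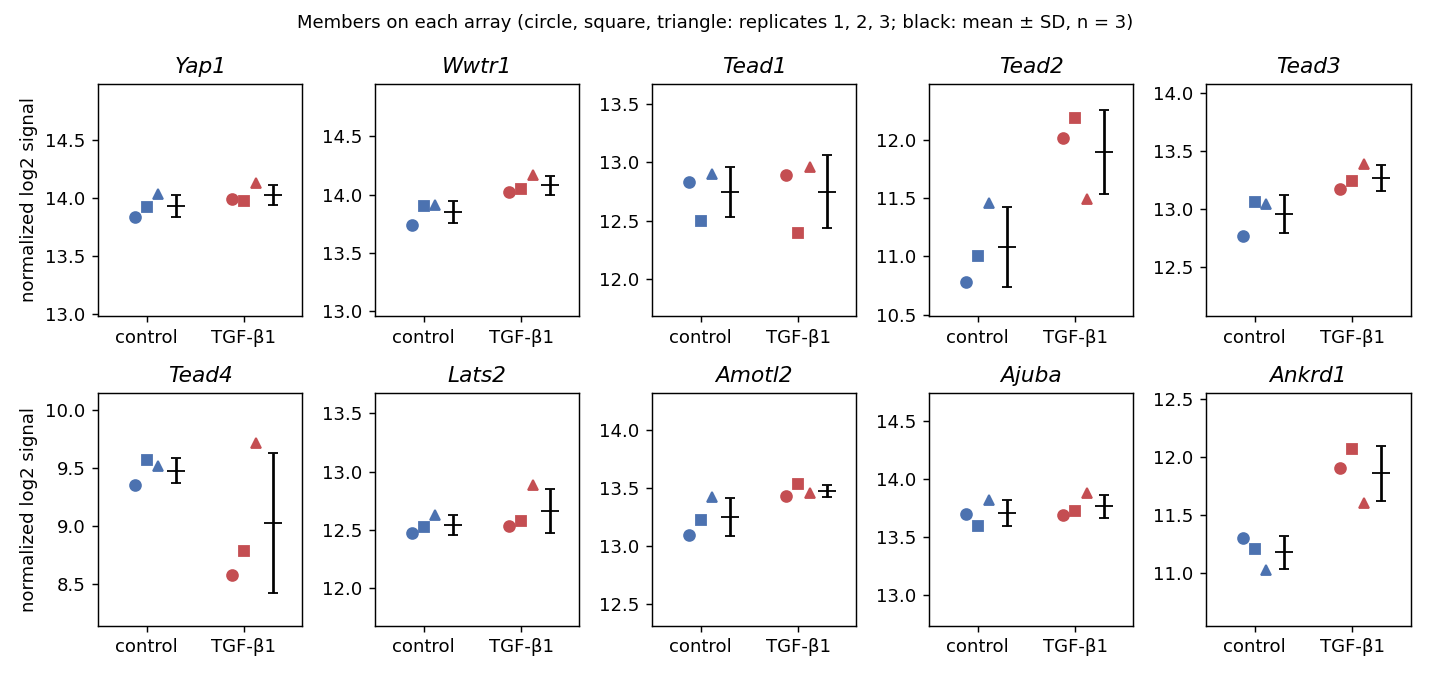
Quantile-normalised log2 signal (vertical axis) of each of the 10 genes on the 3 control (blue) and 3 TGF-β1 (red) arrays, with the mean and SD of each group (n = 3) in black. Each panel spans the same range of log2 units around its own gene. Groups are separate for Wwtr1, Tead2, Tead3, Amotl2 and Ankrd1, and TGF-β1 replicate 3 (red triangle) lies nearest to the control arrays in Tead2 and Ankrd1 and above them in Tead4.

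**Figure D2:**
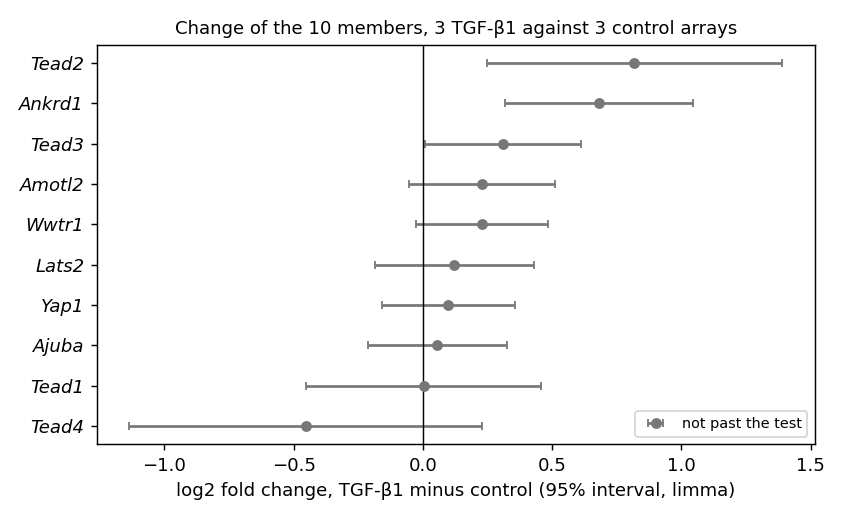
Log2 fold change of each of the 10 genes, TGF-β1 minus control (points), with its 95% interval from limma (bars). The intervals of Tead2, Ankrd1 and Tead3 lie above 0, and none of the 10 passed after adjustment over all tested genes.

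The promoters of the genes whose groups did not overlap are shown because TEAD proteins bind the letters GGAATG, which read CATTCC on the other strand, and genes bound by YAP, TAZ and TEAD include some of the pathway's own members. Each line gives the 250 bases before the transcription start from RefSeq on mouse assembly GRCm38.p6, 5′ to 3′ on the strand of the gene and at the first start listed, with capitals marking those letters. Ankrd1 lies at chr19:36119845-36120094 on the minus strand, Wwtr1 at chr3:57575911-57576160 on the minus strand, Tead3 at chr17:28350806-28351055 on the minus strand Amotl2 at chr9:102717554-102717803 on the plus strand and Tead2, which lacks the letters, at chr7:45215542-45215791 on the plus strand. Ccn1 is shown as a target gene that rose and holds the letters, chosen after the matches were seen, and lies at chr3:145649986-145650235 on the minus strand.
Ankrd1: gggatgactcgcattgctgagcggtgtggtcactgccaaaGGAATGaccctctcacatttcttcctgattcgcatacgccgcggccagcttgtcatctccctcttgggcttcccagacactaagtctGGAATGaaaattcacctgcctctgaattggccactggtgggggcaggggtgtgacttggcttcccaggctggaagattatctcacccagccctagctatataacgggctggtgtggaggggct
Wwtr1: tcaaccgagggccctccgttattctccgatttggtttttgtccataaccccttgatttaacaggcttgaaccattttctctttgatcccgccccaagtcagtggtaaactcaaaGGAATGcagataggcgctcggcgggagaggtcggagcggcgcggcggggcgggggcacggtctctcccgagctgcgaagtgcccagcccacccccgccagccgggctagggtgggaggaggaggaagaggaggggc
Tead3: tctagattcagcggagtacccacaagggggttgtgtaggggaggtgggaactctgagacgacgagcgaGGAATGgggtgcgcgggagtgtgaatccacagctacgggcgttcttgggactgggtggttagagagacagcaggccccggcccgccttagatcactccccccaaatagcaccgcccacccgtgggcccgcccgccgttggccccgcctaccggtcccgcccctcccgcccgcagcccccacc
Tead2: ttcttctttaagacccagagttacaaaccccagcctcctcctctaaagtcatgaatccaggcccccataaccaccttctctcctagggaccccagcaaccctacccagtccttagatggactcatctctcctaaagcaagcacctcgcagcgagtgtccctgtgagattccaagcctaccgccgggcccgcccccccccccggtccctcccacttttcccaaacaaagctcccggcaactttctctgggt
Amotl2: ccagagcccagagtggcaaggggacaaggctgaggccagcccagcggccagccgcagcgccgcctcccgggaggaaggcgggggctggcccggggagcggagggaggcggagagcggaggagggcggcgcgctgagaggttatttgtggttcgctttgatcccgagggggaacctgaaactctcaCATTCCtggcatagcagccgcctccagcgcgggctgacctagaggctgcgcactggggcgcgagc
Ccn1: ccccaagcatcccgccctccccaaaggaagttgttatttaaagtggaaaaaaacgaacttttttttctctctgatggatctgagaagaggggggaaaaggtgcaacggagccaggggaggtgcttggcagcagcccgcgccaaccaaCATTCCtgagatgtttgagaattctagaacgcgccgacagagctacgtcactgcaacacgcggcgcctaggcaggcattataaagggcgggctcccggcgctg

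The match in Ankrd1 began 210 and 123 bases before the start, and the match in the window printed began 136 bases before it in Wwtr1, 182 in Tead3, 65 in Amotl2 and 103 in Ccn1. Wwtr1 has a second start, with the match 170 bases before it, and of the other starts of Tead3 1 has matches at 123 and 114 bases and 1 has none. Of the 8 genes among the 10 that have an entry in the RefSeq promoter table, 6 held the letters in at least 1 window: Yap1, Wwtr1, Tead3, Amotl2, Ajuba and Ankrd1. The share over all genes with an entry was 14.4%. Of the targets listed further on, 6 of 18 with an entry held the letters (Ccn1, Axl, Crim1, Ptpn14, Edn1 and Vgll3), while Gadd45a, Nt5e and F3, which also rose, held none and Ccn2 and Fjx1 have no entry. Tead2 and Lats2 held none, and Tead1 and Tead4 have no entry. In Yap1, whose groups overlapped, the match began 141 bases before the start, and in Ajuba, whose groups also overlapped, matches began 186 and 164 bases before it. The AP-1 letters TGANTCA were in none of the 8 genes and in 7.82% of all genes, and the SMAD letters CAGAC or GTCTG were in 3 of the 8 (Yap1, Ajuba and Ankrd1) and in 45.8% of all genes. In Ankrd1 the SMAD letters that began 127 bases before the start shared 1 base with the TEAD letters that followed. A match describes the sequence only and does not show that a protein is bound.

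The spots of both co-activators were 404 to 555 times the local background over the 6 arrays. Yap1 had log2 signals of 13.84, 13.92 and 14.03 on the control arrays and 13.99, 13.97 and 14.13 on the TGF-β1 arrays. The groups overlapped, and within each group replicate 3 was the highest. Its log2 difference was 0.099 (SE 0.11, 95% interval -0.16 to 0.36; limma adjusted p = 0.604), so a rise in Yap1 RNA of more than 1.28-fold and a fall below 0.895-fold lie outside that interval. Those limits hold for the quantile-normalised values, and scaled to the 75th percentile the difference was -0.11 (SE 0.14).

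Wwtr1 had log2 signals of 13.74, 13.90 and 13.91 in control and 14.02, 14.04 and 14.17 with TGF-β1. All 3 TGF-β1 arrays lay above all 3 controls, by little. The log2 difference was 0.23, or 1.17-fold (SE 0.11, 95% interval -0.03 to 0.48; limma adjusted p = 0.264), and it was 0.017 with scaling to the 75th percentile. Because 3 against 3 arrays allow no exact two-sided permutation p below 0.1, a complete separation of the groups gives that value and no smaller one. The difference between the 2 co-activators was also compared array by array. Wwtr1 minus Yap1 was higher with TGF-β1 by 0.13 on the log2 scale (SE 0.04), with every TGF-β1 array above every control array (exact permutation p = 0.1, adjusted p = 0.28 over 7 pairs compared).

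The 4 TEAD genes encode the DNA-binding partners of YAP and TAZ. Tead2 had log2 signals of 10.78, 11.01 and 11.46 in control and 12.01, 12.19 and 11.49 with TGF-β1. TGF-β1 replicates 1 and 2 lay far above the controls, and replicate 3 lay just above control replicate 3. The log2 difference of 0.82, or 1.76-fold (SE 0.24, 95% interval 0.25 to 1.39), was the highest of the 10 genes, with a limma adjusted p of 0.135. Its other probe, matched to another transcript of the gene, had 0.60 with overlapping groups. Without TGF-β1 replicate 3 the difference was 1.02 (limma adjusted p = 0.0320). Within slide row 1, 2 arrays against 2, it was 1.21 (limma adjusted p = 0.0121, where 26.8% of all tested genes passed), and in row 2, 1 array against 1, it was 0.03.

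Tead3 had log2 signals of 12.77, 13.06 and 13.04 in control and 13.17, 13.24 and 13.39 with TGF-β1, with no overlap. Its log2 difference was 0.31, or 1.24-fold (SE 0.13, 95% interval 0.0080 to 0.61; limma adjusted p = 0.218), and 0.12 with scaling to the 75th percentile. The difference was alike in slide row 1 (0.29) and in row 2 (0.35).

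Tead1 had log2 signals of 12.84, 12.50 and 12.90 in control and 12.89, 12.39 and 12.96 with TGF-β1. Replicate 2 of each group was the lowest and the groups lay over each other, with a log2 difference of 0.0042 (SE 0.19, 95% interval -0.45 to 0.46; limma adjusted p = 0.992). Its other probes had -0.15 and -0.20, so that the sign of Tead1 depended on the probe.

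The spots of Tead4 were 15.5 to 28.2 times the local background. It had log2 signals of 9.35, 9.57 and 9.51 in control and 8.58, 8.79 and 9.71 with TGF-β1. TGF-β1 replicates 1 and 2 lay below every control array and replicate 3 above every one of them. The log2 difference was -0.45 (SE 0.29, 95% interval -1.13 to 0.23; limma adjusted p = 0.372). A second probe of the same transcript had -0.82, with all 3 TGF-β1 arrays below all controls (limma adjusted p over probes = 0.153). Without TGF-β1 replicate 3 the difference was -0.80 (limma adjusted p = 0.0173). Within slide row 1 it was -0.78 (limma adjusted p = 0.0237) and in row 2 it was 0.20.

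Differences between TEAD genes were compared for all 6 of their pairs, array by array, as log2 signals of one minus the other. Tead4 minus Tead3 was lower with TGF-β1 by a difference of -0.76 (SE 0.29), with every TGF-β1 array below every control array (exact permutation p = 0.1, adjusted p = 0.28). For Tead4 minus Tead2 the value was -1.27 (SE 0.57, exact permutation p = 0.2) with overlapping groups. Tead2 minus Tead1 had 0.81 (SE 0.42, exact permutation p = 0.2), and 0.49 to 1.13 with 1 array left out at a time. The other pairs also overlapped, with 0.31 for Tead3 minus Tead1, -0.46 for Tead4 minus Tead1 and -0.51 for Tead3 minus Tead2. No pair could pass at this number of arrays.

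**Figure D3:**
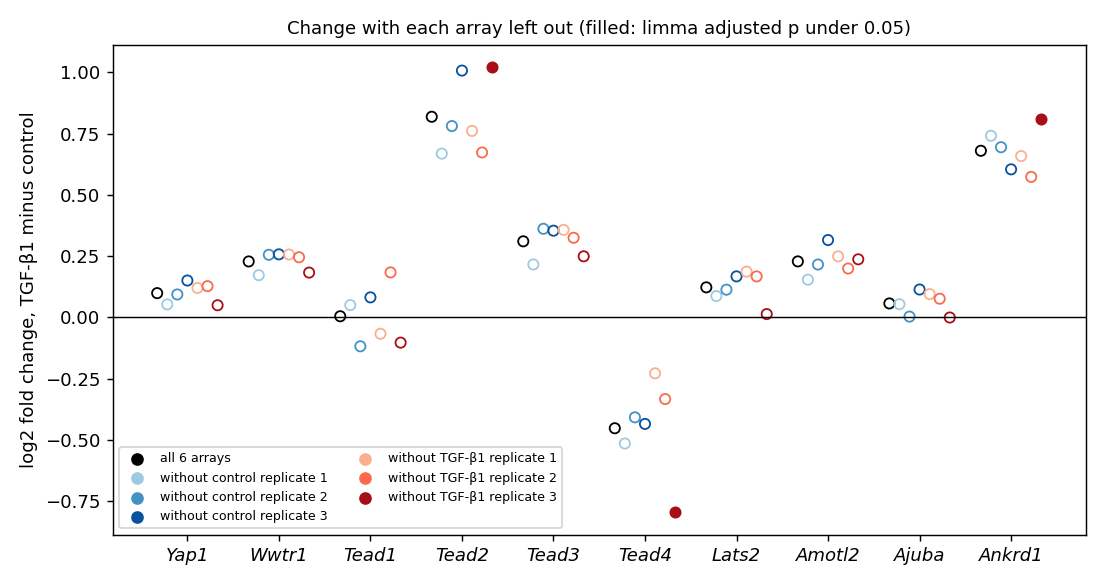
Log2 fold change of each of the 10 genes, TGF-β1 minus control (vertical axis), over all 6 arrays and after removal of 1 array at a time (colours). Filled points have a limma adjusted p under 0.05, which occurred for Tead2, Tead4 and Ankrd1 without TGF-β1 replicate 3.

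Lats2 encodes a kinase that phosphorylates YAP and TAZ, and it is itself a known YAP target. It had log2 signals of 12.47, 12.52 and 12.63 in control and 12.53, 12.57 and 12.88 with TGF-β1. The groups overlapped, with TGF-β1 replicate 3 the highest, and the log2 difference was 0.12 (SE 0.13, 95% interval -0.19 to 0.43; limma adjusted p = 0.590). Its other probes had -0.28 and -0.08. Without TGF-β1 replicate 3 the log2 difference of the gene was 0.013, and with all arrays it was 0.06 in slide row 1 and 0.25 in row 2.

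Amotl2, an angiomotin family scaffold that binds YAP at cell junctions and a known target of YAP, had log2 signals of 13.10, 13.22 and 13.42 in control and 13.44, 13.54 and 13.46 with TGF-β1. The lowest TGF-β1 array lay just above the highest control. The log2 difference was 0.23 (SE 0.12, 95% interval -0.06 to 0.51; limma adjusted p = 0.30), or 0.046 with scaling to the 75th percentile, with 0.32 in slide row 1 and 0.04 in row 2.

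Ajuba, a LIM domain protein that binds LATS kinases and restrains them, had log2 signals of 13.70, 13.60 and 13.82 in control and 13.69, 13.73 and 13.88 with TGF-β1. The groups overlapped, and the log2 difference was 0.06 (SE 0.11, 95% interval -0.21 to 0.33; limma adjusted p = 0.783).

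Ankrd1, a nuclear ankyrin repeat protein and a widely used readout of YAP and TAZ activity, had log2 signals of 11.30, 11.21 and 11.03 in control and 11.90, 12.07 and 11.60 with TGF-β1. Every TGF-β1 array lay above every control, with replicate 3 the lowest of its group. The log2 difference was 0.68 (SE 0.15, 95% interval 0.32 to 1.04, or 1.25-fold to 2.06-fold), with a limma adjusted p of 0.0836, the smallest of the 10 genes. Without TGF-β1 replicate 3 it was 0.81 (limma adjusted p = 0.0180). With any other single array left out the limma adjusted p was 0.113 to 0.283. With scaling to the 75th percentile the difference was 0.56 (limma adjusted p = 0.104). With the slide row as a block the difference of 0.68 had a limma adjusted p of 0.0426, where 2.75% of all tested genes passed. It was 0.73 in row 1 (limma adjusted p = 0.0191) and 0.57 in row 2.

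Other genes that YAP and TAZ are known to raise were counted from a list of 27, with the 10 genes above left out. Of these, 26 were tested, and Foxf2 was well above background on no array. In all, 6 rose and none fell, beside 1.63% of all tested genes that rose and 0.404% that fell. The mean was higher for 23 and lower for 3 (19 and 7 with scaling to the 75th percentile), and the median log2 difference was 0.49. At an unadjusted limma p under 0.05 there were 14, all higher, beside 22.2% of all tested genes in either direction, and the groups did not overlap for 12, all higher, beside 12.9% of all tested genes wholly above and 13.5% wholly below. Several of these genes, Ccn2 among them, are also known to respond to SMAD proteins directly, and RNA levels do not tell the inputs apart.

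Ccn2, a secreted matricellular protein also called CTGF, had log2 signals of 14.15, 14.56 and 14.25 in control and 16.66, 16.68 and 15.93 with TGF-β1. It rose by 2.10 on the log2 scale, or 4.29-fold (SE 0.23; limma adjusted p = 0.0112). Ccn1, its relative CYR61, had 13.73, 13.99 and 14.25 in control and 15.70, 15.82 and 15.03 with TGF-β1, a rise of 1.53 or 2.89-fold (SE 0.24; limma adjusted p = 0.0315). In both, TGF-β1 replicate 3 was the lowest of its group and still above every control.

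Gadd45a, a stress-induced growth arrest gene, rose by 1.09 on the log2 scale (limma adjusted p = 0.0136). Nt5e, the ectonucleotidase CD73, rose by 0.86 (limma adjusted p = 0.0226). Fjx1, a Golgi kinase family member acting in Fat signalling, rose by 0.75 (limma adjusted p = 0.0292), and F3, the tissue factor that starts coagulation, rose by 0.66 (limma adjusted p = 0.0388), a call lost with scaling to the 75th percentile. Of the 6, 3 rose by at least 2-fold, Ccn2, Ccn1 and Gadd45a. Larger values that did not pass were 1.85 for Ccdc80, 1.46 for Edn1 and 1.26 for Areg, with limma adjusted p of 0.136, 0.135 and 0.127. The lowest values were -0.12 for Rbms3, -0.10 for Birc5 and -0.09 for Ereg.

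The number of calls in this list depended on which arrays entered the fit. None passed with control replicate 1 left out (beside 0.488% of all tested genes) or TGF-β1 replicate 1 left out (0.467%). With control replicate 2 left out 1 passed (0.586%), and likewise 1 with TGF-β1 replicate 2 left out (0.39%). Leaving out control replicate 3 gave 3 (2.16%), and leaving out TGF-β1 replicate 3 gave 13 (15.4%), with all 6 among them. Over these fits the log2 difference of Ccn2 lay between 1.97 and 2.35, that of Ccn1 between 1.38 and 1.77 and that of F3 between 0.62 and 0.73. Within slide row 1 the median over the list was 0.75 and 16 of 26 passed, beside 26.8% of all tested genes, and in row 2 it was 0.21.

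**Figure D4:**
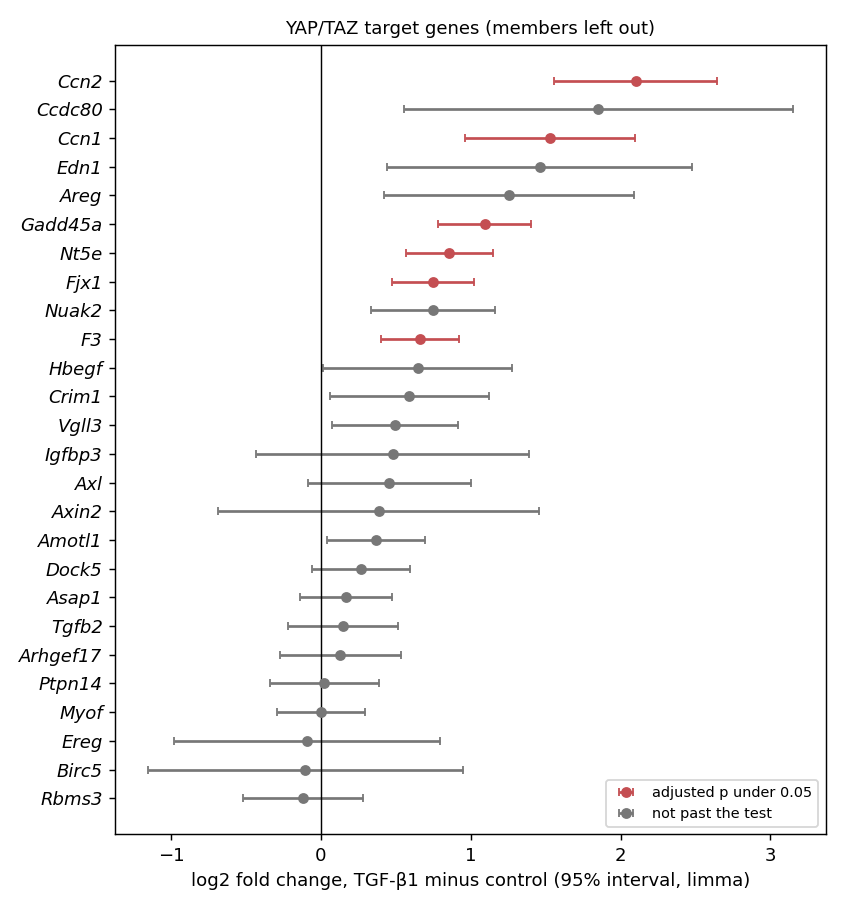
Log2 fold change, TGF-β1 minus control, with 95% intervals from limma, for the 26 tested target genes of YAP and TAZ other than the 10. Ccn2, Ccn1, Gadd45a, Nt5e, Fjx1 and F3 (red) had a limma adjusted p under 0.05, and 23 of the 26 points lie above 0.

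Genes acting above YAP and TAZ were counted from a list of 42 that holds the MST, LATS and MAP4K kinases, their scaffolds and junction proteins. Frmd1 and Dchs2 had no matched probe, and the other 40 were tested. Only Fjx1, which both lists hold, rose, and none fell, while at an unadjusted limma p under 0.05 there were 6 higher and 2 lower. The shares over all tested genes were 2.04% past the test and 22.2% at the unadjusted p. The mean was higher for 21 and lower for 19 (13 and 27 with scaling to the 75th percentile), with a median of 0.03, close to the -0.03 of all tested genes. Amot, the founding member of the angiomotin family, had 13.80 to 14.45 in control and at least 14.89 on every TGF-β1 array, a log2 difference of 0.90 without overlap (limma adjusted p = 0.0675). Kirrel, an adhesion protein that acts on Hippo signalling, had 0.72 (limma adjusted p = 0.0956), and the protocadherin Fat1 had 0.69 with overlapping groups (limma adjusted p = 0.178). Map4k4 had 0.41 and Amotl1 had 0.37. The lowest were the LATS co-activators Mob1a, at -0.64 (limma adjusted p = 0.112), and Mob1b, at -0.39, and the kinase Taok3, at -0.35. Without TGF-β1 replicate 3, 5 of the 40 passed (Mob1a, Amot, Fat1, Fjx1 and Kirrel), where 15.4% of all tested genes did. Without control replicate 3 Amot passed and Fjx1 did not, and none passed when either of control replicates 1 and 2 or either of TGF-β1 replicates 1 and 2 was left out.

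**Figure D5:**
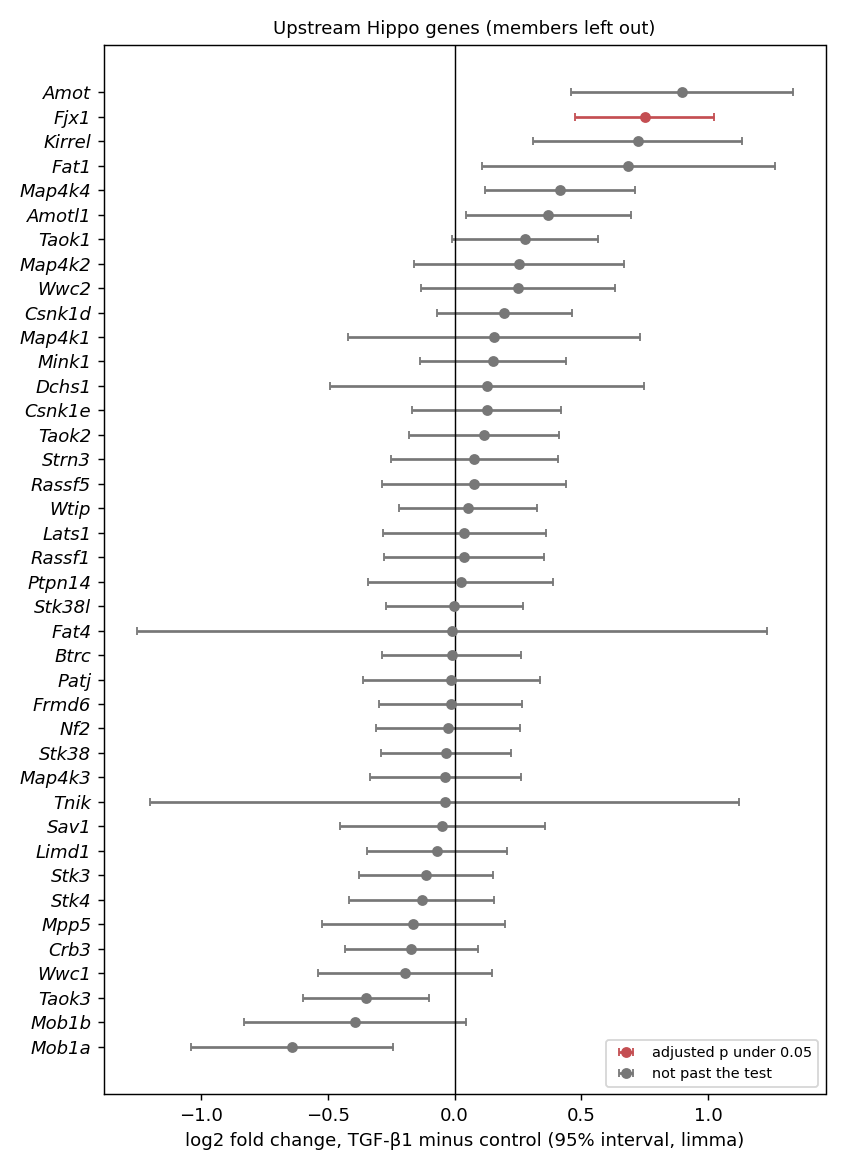
Log2 fold change, TGF-β1 minus control, with 95% intervals from limma, for the 40 tested genes acting above YAP and TAZ. Fjx1 (red) alone had a limma adjusted p under 0.05, and the points lie on both sides of 0.

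The VGLL proteins also bind TEADs, in competition with YAP and TAZ. Vgll3 had a log2 difference of 0.49 without overlap (limma adjusted p = 0.182) and Vgll4 had 0.14 (limma adjusted p = 0.498), while Vgll1 and Vgll2 were well above background on no array.

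Markers of other cell types moved beside these results, and their part was not tested. Of 8 fibroblast markers 5 were tested, with a summed log2 signal of 9.15 to 9.32 on the control arrays and of 11.39, 10.22 and 9.44 on TGF-β1 replicates 1, 2 and 3, and Col3a1, Pdgfrb and Lum were well above background on no array. Dcn is the brightest part of that sum, and its own log2 difference was 1.00 (limma adjusted p = 0.273), beside 2.47 for Thy1 with overlapping groups (limma adjusted p = 0.176) and 0.21 for Pdgfra. The collagen genes Col1a1 and Col1a2 had spots marked as well above background on every TGF-β1 array, replicate 3 included, and on no control array. They thus entered the test only through the TGF-β1 arrays, and their higher signal is given as a description. Against the dimmest signal still well above background on the control arrays, Col1a1 was 2.16-fold higher and Col1a2 2.38-fold higher. These folds were not tested. From the dim control signals as measured, the log2 differences were 2.33 (limma adjusted p = 0.0131) and 2.07 (limma adjusted p = 0.0162). Of 7 leukocyte markers 4 (Cd68, Itgam, Cd3e and Csf1r) were tested, with 13.37 to 13.58 in control and 13.73 to 13.85 with TGF-β1, and Ptprc, Cd79a and Lyz2 were well above background on no array. Among smooth muscle and mesothelial markers 3 of 7 were tested (Cnn1, Acta2 and Msln), with summed log2 signals of 17.22 to 17.36 in control and 17.32 to 17.49 with TGF-β1, made up mostly of Msln. Cnn1, a smooth muscle calponin, rose by 2.13 (limma adjusted p = 0.0231), while Msln and Acta2 had 0.12 and 0.02, and Myh11, Des, Upk3b and Wt1 were well above background on no array. For endothelial cells only Pecam1 of 6 was tested, with 6.03 to 6.21 in control and 6.12 to 6.32 with TGF-β1. The 5 tested type 1 alveolar markers (Cav1, Ager, Hopx, Pdpn and Aqp5) were well above background on all 6 arrays, with 18.01 to 18.14 in control and 17.90 to 18.09 with TGF-β1. Among the airway markers, Foxj1 of ciliated cells rose by 1.47 (limma adjusted p = 0.00239), while Krt5 of basal cells had 1.37 with overlapping groups (limma adjusted p = 0.178) and Trp63, also of basal cells, had 0.18 (limma adjusted p = 0.332). Scgb1a1 of club cells had -2.27, with all 3 TGF-β1 arrays below all controls (limma adjusted p = 0.158). In such bulk RNA, fewer cells of a type and less RNA per cell cannot be told apart.

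The genes whose signal followed a member most closely over the 6 arrays were found by Pearson r among 13517 genes well above background on all of them. For Yap1 these were Smad4 (r = 0.998) and Knstrn (r = 0.989), for Wwtr1 they were Tead3 (r = 0.995) and Mss51 (r = 0.993), and for Ankrd1 they were Tmem234 (r = 0.997) and Adgre5 (r = 0.996). With 6 arrays in 2 groups and so many genes searched, these values are a description.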

How the data were processed

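The authors extracted total RNA from each culture and labelled it with Cy3. Agilent Feature Extraction 11.0.1.1 gave the deposited intensity of each spot on a linear scale, subtracted for background and not yet normalised between arrays, together with marks for spots that were well above background, saturated or uneven. Control and uneven spots were left out. Accessions were matched to symbols through RefSeq on GRCm38.p6, which named 32991 of 35883 probes with a RefSeq accession. Log2 signals were quantile-normalised, as the methods state. A probe was kept if 3 or more of the 6 arrays marked it as well above background, a gene was represented by its brightest probe, and groups of 3 arrays were compared with limma 3.58.1 in R 4.3.3. The fit was tested on simulated data. Exact permutation tests were two-sided. The number of arrays limits the precision.

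The members, lists and tests were chosen with earlier results of these data known. The text names all 10 members, list genes past the test or with the largest changes, tested TEAD cofactors, the TGF-β response genes, markers of other cell types that were tested and the 2 genes most like Yap1, Wwtr1 and Ankrd1. A gene that this rule selects is not reported here. Alternatives were 75th percentile scaling, normexp background with an offset of 50 on median brightness (mean brightness is not in the columns used here), other filters on dim probes, the mean of a gene's probes, a trended robust variance prior, array weights, replicate and slide row blocks, each array left out, and the unpaired t-test of the methods. Values within slide rows and the overlap of groups under 75th percentile scaling were added after seeing the data.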

Additional observations from a re-analysis of the deposited data

How the results depend on the processing

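Of 17 alternatives, some turned the sign of the members nearest to no change. With 75th percentile scaling the log2 differences were -0.11 for Yap1, -0.15 for Tead1, -0.026 for Lats2 and -0.14 for Ajuba. With the mean of a gene's probes they were -0.12 for Tead1 and -0.080 for Lats2, and with array weights -0.033 for Tead1. Leaving out 1 array at a time gave -0.12 to 0.18 for Tead1 and -0.00094 to 0.11 for Ajuba, Tead1 being negative when control replicate 2, TGF-β1 replicate 1 or TGF-β1 replicate 3 was the one left out and Ajuba when TGF-β1 replicate 3 was. It gave 0.67 to 1.02 for Tead2, -0.80 to -0.23 for Tead4 and 0.57 to 0.81 for Ankrd1, and 0 to 3 members, 0 to 13 targets and 0 to 5 upstream genes passed.

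Array weights, under which 34.7% of all tested genes passed, called Tead2 (1.11), Tead4 (-0.70) and Ankrd1 (0.70), and so 3 members, 16 targets and 9 upstream genes. The trended robust prior (3.53%) and the slide row block (2.75%) each called 1 member, Ankrd1 (0.68), and the prior called 3 upstream genes. The methods name an unpaired t-test for single comparisons, though not for the arrays. Without adjustment (17.1%) it called 3 members, Wwtr1 (0.23), Tead2 (0.82) and Ankrd1 (0.68), 9 targets and 7 upstream genes. After Benjamini-Hochberg adjustment (0.0627%) it called 0 members, 0 targets and 0 upstream genes, where limma called 6 targets and 1 upstream gene. Without a filter on dim probes 0 targets and 0 upstream genes passed, beside 0.323% of the 22910 genes tested (the cause was not tested). With normexp background 2 upstream genes passed, beside 3% of all tested genes.

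Deviations of same-numbered arrays correlated at -0.0079, 0.33 and -0.05, and those of differently numbered arrays of the groups at -0.37 to 0.25. So few values do not settle whether replicate numbers pair the samples. With the replicate block 0 members, 2 targets (Ccn2 and Gadd45a) and 0 upstream genes passed, beside 0.718% of all tested genes. With 3 arrays a group, changes of small size could not be told from none.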
